A study of Mus musculus with 6 samples.

Results

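The vascular endothelial growth factor (VEGF), platelet-derived growth factor (PDGF) and angiopoietin genes were examined in primary white adipocytes of mouse subcutaneous fat that carried miR-182-5p mimic or mimic control. The set was the 10 gene symbols Vegfa, Vegfb, Vegfc, Pgf, Pdgfa, Pdgfb, Pdgfc, Pdgfd, Angpt1 and Angpt2, all of them listed among the 22609 genes counted. The cells are labelled primary cultured iWAT (inguinal white adipose tissue), obtained as a stromal vascular fraction from male C57BL6 mice aged 3 weeks and differentiated in culture. The 3 control samples are labelled as control vector, and the other 3 as miR182 overexpression. The labels state electroporation, whereas the methods of the study describe delivery of a mimic with a lipid reagent and older mice, so the exact form of the treatment is uncertain. Neither source says whether the 3 samples of a group came from separate cultures or animals, and the p values then measure only the spread between these samples.

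VEGF-A, VEGF-B, VEGF-C and placental growth factor (the product of Pgf) are secreted dimers that act through the receptor tyrosine kinases VEGFR1, VEGFR2 and VEGFR3, with neuropilins as coreceptors. VEGF-A is the main signal for the growth of blood vessels, including those of expanding and beiging fat, and VEGF-C acts chiefly on lymphatic vessels. The PDGFs act through PDGFRα and PDGFRβ, which mark mesenchymal cells, including the progenitors of adipocytes, and pericytes. Angiopoietin 1 activates the endothelial receptor TIE2 (encoded by Tek) and stabilizes vessels, and angiopoietin 2 can oppose it.

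The sequence of the mature miRNA and the match to its seed are shown because the design raises the amount of this miRNA, and genes with such a match in the 3′-UTR are its candidate targets. The RefSeq sequence lies on the minus strand of chr6:30165962-30165986 of GRCm38.p6, with bases 2 to 8 in capitals. The methods of the study print other letters under the name of this miRNA, and these were not analysed here. A match to the seed, TTGCCAA on the transcript strand, was present in the longest annotated 3′-UTR of 1 of the 10 growth factor genes, Pdgfa. It begins 80 bases into a 3′-UTR of 1203 bases, at chr5:138977131-138977137 of GRCm38 on the minus strand, and stands in capitals within 29 bases of the transcript. Among the 12527 genes that passed the filter on low counts and had an annotated 3′-UTR, 13.9% held the match.
mmu-miR-182-5p: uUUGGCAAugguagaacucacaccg
Pdgfa 3′-UTR site: atggtgcttcaTTGCCAAtgtgcgtgcgg

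Reads counted on genes ranged from 25869810 to 26484794 with mimic control and from 25960631 to 28796712 with the mimic. Counts were scaled by edgeR's TMM method and are given as CPM, that is, counts set to one common library total. The adipocyte markers Adipoq, Plin1 and Fabp4 were all expressed. The summed level of 8 adipocyte markers ranged from 6327 to 6645 CPM with mimic control and from 4365 to 4944 CPM with the mimic. Fabp4 was the largest part of this sum, with a mean of 3316 CPM with mimic control and 2067 CPM with the mimic. At an adjusted p under 0.05 in edgeR's quasi-likelihood test, 5 of the 8 were lower, 1 (Lep) was higher and 2 (Plin1 and Lipe) did not pass. Of all genes tested, 23.5% were lower and 23.2% higher at this threshold. The summed level of 10 endothelial markers was 15.7 to 17.2 CPM with mimic control and 10.7 to 11.5 CPM with the mimic. Of these, Cldn5 had 0 reads in every sample, Tie1 at most 5 and Pecam1 at most 11, while Tek and Egfl7 made up most of the sum. Without these 2 genes the other 8 summed to 3.26, 3.52 and 3.75 CPM with mimic control and to 3.53, 3.30 and 4.29 CPM with the mimic, and the groups overlapped. Mural cell markers, which include Pdgfrb and Acta2, summed to 3176 to 3332 CPM with mimic control and to 3784 to 3998 CPM with the mimic. Acta2 was most of this sum, with a mean of 2364 CPM with mimic control and 2891 CPM with the mimic. The other 8 summed to 923, 891 and 906 CPM with mimic control and to 968, 967 and 984 CPM with the mimic. Most of that sum was Pdgfrb, with means of 705 CPM with mimic control and 733 CPM with the mimic. Pdgfrb did not pass the test. Single mural genes moved in both directions, as given below. In these bulk samples, fewer cells of a type and less RNA per cell cannot be told apart. The part of cell composition in the results below was not tested.

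Vegfa was by far the most abundant of the 10 mRNAs per length of transcript. Divided by the exon bases of each gene, its level was 125 ± 1.32 CPM per kilobase (SD, n = 3) with mimic control, higher than that of 98.0% of the tested genes with a known length. Vegfb followed at 21.8 ± 1.64 CPM per kilobase, and Pdgfc at 5.54 ± 0.0505. Pdgfa, Angpt2, Pdgfd, Angpt1 and Vegfc lay between 3.56 and 1.69 CPM per kilobase on average. The levels of Pdgfd and Angpt1 overlapped between samples, and so did those of Pgf and Pdgfb, the lowest pair. All other neighbours in this order were separated in the control samples. The order of the means was identical with the mimic, where Angpt1 and Vegfc also overlapped.

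**Figure D1:**
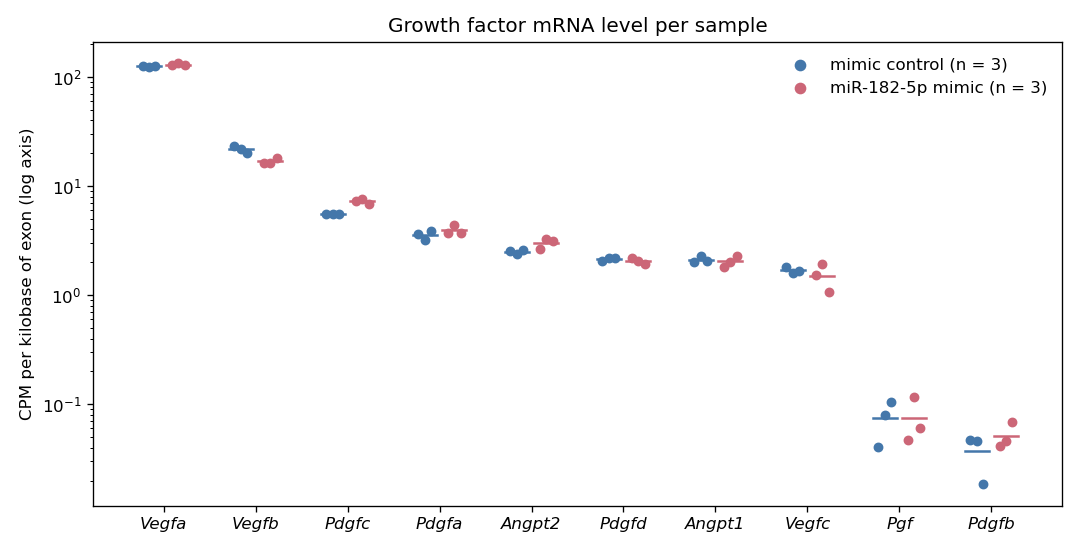
Level of each growth factor mRNA in each sample, in CPM per kilobase of exon on a log axis, ordered by the control mean. Points are samples (n = 3 per group) and horizontal lines are group means. Vegfa lies above the other 9 genes, and Pgf and Pdgfb are close to the limit of detection.

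Pgf and Pdgfb were below the filter on low counts and were not tested. In replicates 1 to 3, the reads of Pgf numbered 3, 6 and 8 with mimic control and 4, 9 and 5 with the mimic. Pdgfb, which encodes the B chain through which endothelial cells recruit pericytes, received 5, 5 and 2 reads in the control samples and 5, 5 and 8 in the mimic samples. The groups overlapped for both genes. The ratio of the summed levels, mimic over control, was 0.982 for Pgf, with an exact 95% interval from 0.477 to 2.03. For Pdgfb it was 1.39, with an interval from 0.634 to 3.17. These intervals cover counting error only, and a change of up to about the size of their limits was not detectable at this depth.

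Of the 8 growth factor genes tested, 2 rose (Pdgfc and Angpt2) and 1 fell (Vegfb) with miR-182-5p mimic at an adjusted p under 0.05, and 5 did not pass the test. Among all 13117 genes tested, 46.7% passed this threshold, 23.2% higher and 23.5% lower with the mimic, so the share of 37.5% in the growth factors was not above the background. None of the 8 reached the 1.5-fold change that the study used as a second cutoff, which 7.45% of all genes passed together with the adjusted p. This count of 0 was also given by DESeq2 and by limma-voom, and at an unadjusted p under 0.05, which 53.1% of all genes passed, 3 of the 8 genes passed in edgeR. The groups did not overlap for 4 of the 8 genes, where 54.8% of all genes tested had groups apart. The median log2 fold change of the 8 was 0.00022, beside -0.0043 for all genes tested, and the median of its absolute size was 0.16 in both.

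**Figure D2:**
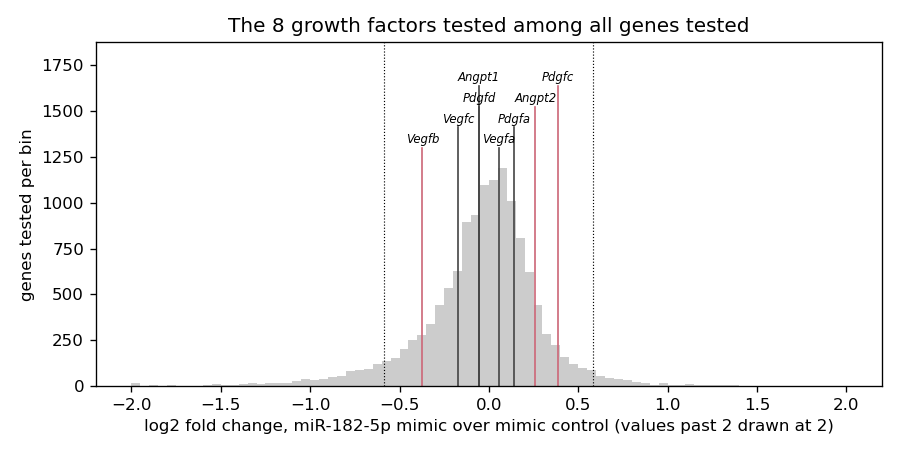
Log2 fold changes (miR-182-5p mimic over mimic control) of the 13117 genes tested, as a histogram in gray, with the 8 growth factor genes tested as vertical lines. Red lines mark the 3 genes past an adjusted p of 0.05 (Vegfb, Angpt2 and Pdgfc), dark gray lines the other 5, and dotted lines the 1.5-fold change. All 8 lie inside the dotted lines.

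Vegfa differed by a small amount between the groups, which did not pass the test. The gene (GRCm38 chr17:46016993-46032369, minus strand) stood at 536, 528 and 538 CPM in mimic control replicates 1 to 3 and at 547, 568 and 551 CPM in mimic replicates 1 to 3. The lowest mimic sample exceeded the highest control sample by a small margin. The log2 fold change was 0.055 (SE 0.028, 95% CI -0.0042 to 0.11, edgeR adjusted p = 0.119). The upper limit of this interval was an increase of 0.11 on the log2 scale. In the 6 fits that left out 1 sample the log2 fold change was 0.043 to 0.067, and it passed in none. The counts are per gene and do not separate the splice forms of Vegfa, which differ in how tightly the protein binds the matrix.

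Vegfb, whose product binds VEGFR1 and has been studied for its part in fatty acid uptake by endothelial cells, was lower with the mimic. The gene (GRCm38 chr19:6982473-6987651, minus strand) stood at 37.5, 35.3 and 32.2 CPM with mimic control and at 26.2, 26.2 and 28.7 CPM with the mimic. The groups did not overlap. The mean fell from 34.99 ± 2.64 to 27.0 ± 1.45 CPM (SD, n = 3 each). The log2 fold change was -0.37 (SE 0.062, edgeR adjusted p = 0.000213). This was an absolute fold change exceeded by 19.2% of all genes tested, and the gene passed in all 6 fits that left out 1 sample.

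Vegfa and Vegfb can also be compared within a library, where no scaling between libraries is needed. The reads of Vegfa were 14.3 to 16.7 times those of Vegfb with mimic control and 19.2 to 21.7 times with the mimic, a ratio that also carries the lengths of the genes. On the log2 scale the ratio was 3.84, 3.90 and 4.06 with mimic control and 4.38, 4.44 and 4.26 with the mimic. All 3 mimic samples lay above all 3 control samples, with a mean difference of 0.43 (exact permutation test, two-sided, p = 0.1). That is the smallest p that 3 samples against 3 can give, so this design cannot pass 0.05.

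Of the 8 growth factor genes tested, Vegfc had the largest standard error. Its counts were 112, 103 and 107 in the control samples and 109, 125 and 74 in the mimic samples. The mimic samples lay on both sides of the control samples, with replicate 3 the lowest and replicate 2 the highest of all. Its log2 fold change was -0.17 (SE 0.17, 95% CI -0.54 to 0.20, edgeR adjusted p = 0.445), and without mimic replicate 3 it was 0.030. Ccbe1, which encodes a secreted protein needed for the maturation of VEGF-C, had a mean of 2.55 ± 0.396 CPM with mimic control and 1.49 ± 0.0744 CPM with the mimic (SD, n = 3 each), and fell by 0.77 on the log2 scale (edgeR adjusted p = 0.00198).

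Figf, the older symbol of Vegfd, encodes VEGF-D, which like VEGF-C acts on VEGFR3, and is not among the 10 genes. Its level was 157, 164 and 151 CPM with mimic control and 121, 132 and 130 CPM with the mimic. The groups were apart, and the log2 fold change was -0.30 (SE 0.039, edgeR adjusted p = 2.15e-05). Per length it stood at 65.3 CPM per kilobase with mimic control, between Vegfa and Vegfb.

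The VEGF receptor genes were low in these cells, while the neuropilin genes were not. Flt1, which encodes VEGFR1, the receptor of VEGF-A, VEGF-B and placental growth factor, was expressed at 8.76, 7.89 and 8.24 CPM with mimic control and at 10.96, 10.9 and 10.1 CPM with the mimic. All mimic samples were higher, with a log2 fold change of 0.36 (SE 0.079, edgeR adjusted p = 0.00189). Kdr (VEGFR2) had 30 to 53 reads with mimic control and 51 to 66 with the mimic, and Flt4 (VEGFR3) had 12 to 28 and 21 to 31. The groups overlapped for both and neither passed the test, with adjusted p values of 0.0899 and 0.353. Kdr passed without mimic control replicate 3, at an adjusted p of 0.0263.

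Nrp2, the neuropilin that binds VEGF-C as well as VEGF-A, had the largest rise among the receptor genes tested. Its samples stood at 46.1, 48.2 and 46.9 CPM with mimic control and at 91.9, 95.5 and 94.1 CPM with the mimic. The samples of each group lay close together and the groups were far apart, with a log2 fold change of 0.995 (SE 0.036, edgeR adjusted p = 4.73e-11). Nrp1, the other neuropilin, was lower by a small margin, at 239 ± 2.32 CPM with mimic control and 225 ± 6.76 CPM with the mimic (SD, n = 3 each). The change of -0.091 on the log2 scale had an adjusted p of 0.0199 in edgeR, which became 0.0625, 0.0579 and 0.0707 without control replicate 2, control replicate 3 or mimic replicate 1.

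Among the PDGF ligands, Pdgfc was higher with the mimic. PDGF-C is secreted in a latent form, is activated by proteolysis, and acts mainly through PDGFRα. Its gene (GRCm38 chr3:81036416-81214040, plus strand) received 721, 728 and 739 reads in the control samples and 1086, 1017 and 979 in the mimic samples, or 28.3, 27.9 and 28.3 CPM against 37.2, 38.6 and 34.7 CPM. The control samples were nearly identical and all 3 mimic samples lay above them. The log2 fold change was 0.39 (SE 0.052, 95% CI 0.27 to 0.50, edgeR adjusted p = 3.14e-05), the smallest p among the 8 growth factor genes. An RNA gene annotated on the other strand covers 147 of its 5089 exon bases. The absolute fold change was exceeded by 18.3% of all genes tested, and the gene passed in all 6 fits that left out 1 sample.

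Pdgfa, which encodes the A chain that also binds PDGFRα, carries the seed match shown above. It was expressed at 11.3, 9.92 and 12.1 CPM with mimic control and at 11.7, 13.6 and 11.5 CPM with the mimic. The groups overlapped. The log2 fold change was 0.14 (SE 0.090, 95% CI -0.052 to 0.34, edgeR adjusted p = 0.220). Leaving out 1 sample moved it between 0.065 (without mimic replicate 2, and 0.066 without control replicate 2) and 0.21 (without control replicate 3), and it passed in none of these 6 fits. An RNA gene annotated on the other strand covers 813 of the 3119 exon bases of Pdgfa, and the strand setting of the counting is not known.

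Pdgfd, whose product acts through PDGFRβ, was expressed at 6.44, 6.89 and 6.90 CPM with mimic control and at 6.89, 6.49 and 6.09 CPM with the mimic. The groups overlapped, with a log2 fold change of -0.055 (SE 0.092, 95% CI -0.25 to 0.14, edgeR adjusted p = 0.652). Over the 4 PDGF genes together, counted per length, the share of Pdgfc was 49.1 ± 1.29% with mimic control and 54.5 ± 0.545% with the mimic, that of Pdgfa was 31.5 ± 2.11% and 29.6 ± 1.44%, and that of Pdgfd was 19.0 ± 0.991% and 15.5 ± 0.901% (SD, n = 3 each). Pdgfb held under 1%, the smallest share in both groups. The shares are parts of a fixed total, so a larger share of Pdgfc goes with a smaller share of the others together. The levels of Pdgfa and Pdgfd did not pass the test, as given above.

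The receptor that PDGF-C binds moved the other way. Pdgfra, which encodes PDGFRα, was expressed at 445, 448 and 455 CPM with mimic control and at 256, 246 and 241 CPM with the mimic. The groups were widely separated, with a log2 fold change of -0.86 (SE 0.030, edgeR adjusted p = 2.87e-11). Pdgfrb, which encodes PDGFRβ, stood at 705 ± 13.5 CPM with mimic control and 733 ± 7.40 CPM with the mimic (SD, n = 3 each). The difference of 0.056 on the log2 scale did not pass (edgeR adjusted p = 0.117). Pdgfrl, a gene similar to the receptors in sequence, fell by 0.34 on the log2 scale (edgeR adjusted p = 0.00303). Pdgfra also belongs to a list of 7 adipocyte progenitor markers. Of these, 6 were tested, 5 were lower and 1 (Thy1) was higher, beside 23.5% lower and 23.2% higher among all genes tested. In that list Cd34 fell by 1.53 and Pi16 fell by 0.78 on the log2 scale. The 7 markers summed to 1478 to 1512 CPM with mimic control and 1194 to 1325 CPM with the mimic, a sum that contains Pdgfra itself. The other 6 summed to 1032, 1034 and 1057 CPM in the control samples and to 1069, 948 and 960 CPM in the mimic samples, where the groups overlapped and mimic replicate 1 was highest. Most of that sum was Thy1, with means of 524 CPM with mimic control and 596 CPM with the mimic, and Ly6a, with 461 and 361 CPM.

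Of the 2 angiopoietin genes of the set, Angpt2 passed the test and Angpt1 did not. Angpt1 received 266, 309 and 280 reads in the control samples and 274, 278 and 335 in the mimic samples. The groups overlapped, with a log2 fold change of -0.055 (SE 0.091, 95% CI -0.25 to 0.14, edgeR adjusted p = 0.652). For this gene, 737 of 5205 exon bases are shared with an annotated RNA gene of the other strand.

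Angpt2 (GRCm38 chr8:18690263-18741562, minus strand) received 239, 229 and 248 reads in the control samples and 285, 315 and 324 in the mimic samples. Scaled to library size this was 9.39, 8.77 and 9.50 CPM against 9.76, 12.0 and 11.5 CPM. All mimic samples were higher, but mimic replicate 1 lay close to the control samples. The log2 fold change was 0.26 (SE 0.088, 95% CI 0.072 to 0.45, edgeR adjusted p = 0.0251). The adjusted p passed 0.05 in only 2 of the 6 fits that left out 1 sample. These were without control replicate 3 (0.0416) and without mimic replicate 1 (0.00320, with a log2 fold change of 0.35). In the others it was 0.0520 without control replicate 1, 0.0909 without control replicate 2, 0.0995 without mimic replicate 2 and 0.0704 without mimic replicate 3. With DESeq2 it was 0.0596.

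Within a library, the reads of Angpt2 were 0.741 to 0.898 times those of Angpt1 with mimic control and 0.967 to 1.13 times with the mimic. The log2 ratio was -0.15, -0.43 and -0.17 with mimic control and 0.057, 0.18 and -0.048 with the mimic. The groups did not overlap, and the mean difference of 0.32 had the smallest p that this design allows (exact permutation test, two-sided, p = 0.1).

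**Figure D3:**
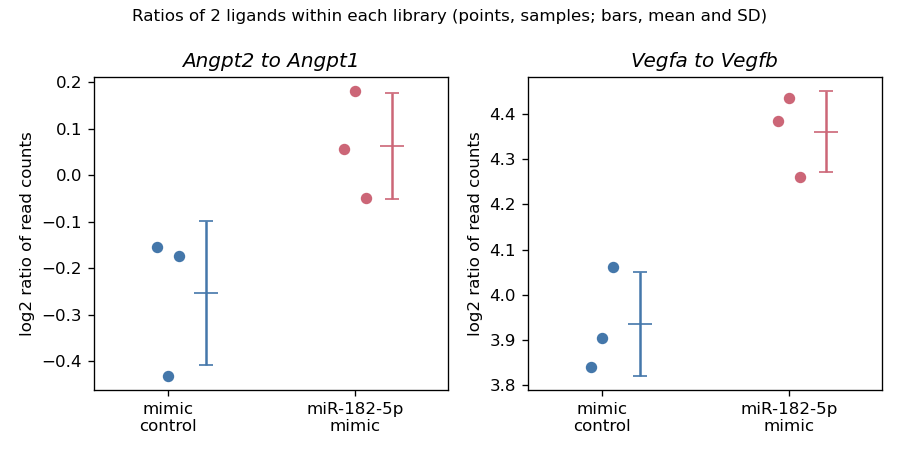
Log2 ratio of the read counts of Angpt2 to Angpt1 (left) and of Vegfa to Vegfb (right) in each library. Points are the 3 samples of each group, and bars are the mean and SD. In both panels the mimic samples lie above the control samples, by 0.32 and 0.43 on average.

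Angpt4, another angiopoietin gene that is not among the 10, was lower with the mimic. It was expressed at 11.8, 11.3 and 10.8 CPM with mimic control and at 8.22, 8.58 and 8.50 CPM with the mimic, a log2 fold change of -0.42 (SE 0.075, edgeR adjusted p = 0.000385). Tek, which encodes the angiopoietin receptor TIE2, had the largest fold change of the 10 receptor genes tested. Its samples stood at 5.81, 6.74 and 5.59 CPM with mimic control and at 2.71, 2.35 and 2.23 CPM with the mimic, a log2 fold change of -1.31 (SE 0.13, edgeR adjusted p = 1.49e-06). The groups were apart for both genes. Tek is also an endothelial marker, and of the other 9 on that list only Egfl7 fell, while Cdh5, Kdr and Vwf did not pass and 5 had too few reads. Ptprb, which encodes a phosphatase that restrains TIE2, did not pass, with a log2 fold change of 0.22 and an adjusted p of 0.199 in edgeR. Leaving out 1 sample moved this value between 0.11 (without control replicate 2) and 0.31 (without mimic replicate 1).

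Of 11 receptor and coreceptor genes 10 were tested, 2 of them rose (Nrp2 and Flt1), 4 fell (Tek, Pdgfra, Pdgfrl and Nrp1) and 4 did not pass. Of all genes tested, 46.7% passed, 23.2% higher and 23.5% lower. The median log2 fold change of the 10 was 0.14, beside -0.0043 for all genes tested, although more of them fell than rose. The 1.5-fold cutoff was passed by Nrp2, Pdgfra and Tek, that is, by 3 of the 10, and by 7.45% of all genes tested. None of the 10 had the miR-182-5p seed match in its longest 3′-UTR.

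**Figure D4:**
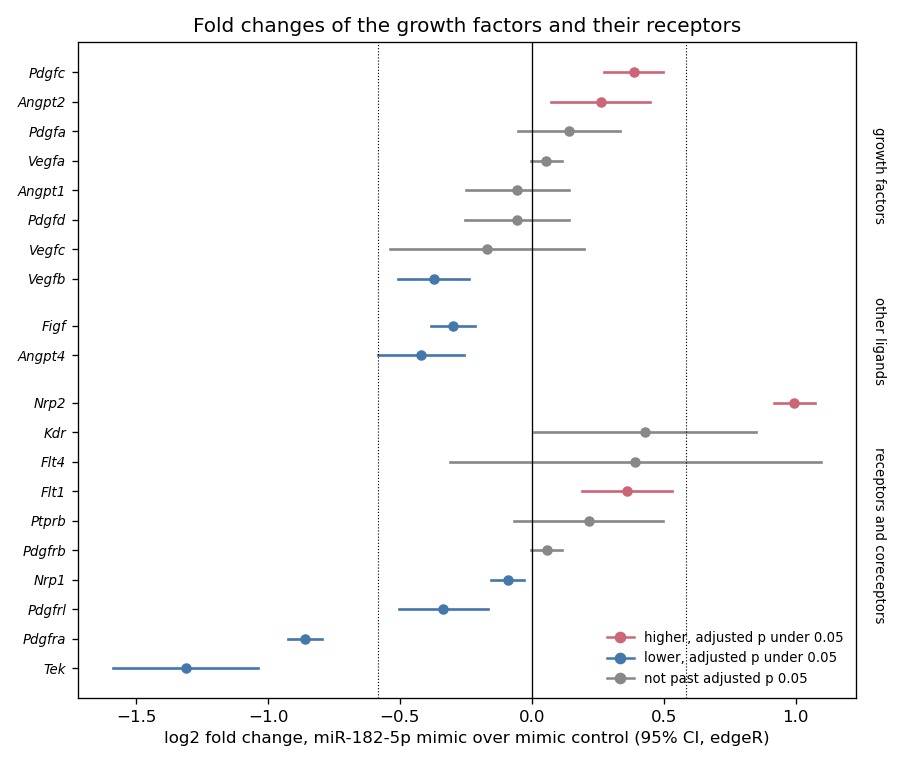
Log2 fold changes with 95% confidence intervals from edgeR for the 8 growth factor genes tested, the 2 other ligand genes and the 10 receptor and coreceptor genes tested. Red marks genes higher and blue genes lower with the mimic at an adjusted p under 0.05, gray marks genes that did not pass, and dotted lines mark the 1.5-fold change. The growth factors lie inside the dotted lines, while Nrp2, Pdgfra and Tek lie outside.

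A list of 22 genes that process, bind or oppose these factors, or damp the signaling of their receptors, had 21 members tested, of which 5 rose and 10 fell, beside 23.2% higher and 23.5% lower among all genes tested. The median log2 fold change of the 21 was -0.12, and that of all genes tested was -0.0043. Those past the 1.5-fold cutoff, which 7.45% of all genes passed, were Ccbe1, Vash1 and Dcn. Vash1, which encodes the angiogenesis inhibitor vasohibin 1, fell from 3.28 ± 0.287 to 2.03 ± 0.290 CPM, and Dcn, which encodes the matrix proteoglycan decorin, fell from 677 ± 23.1 to 433 ± 5.34 CPM (SD, n = 3 each). The log2 fold changes were -0.69 and -0.64, with adjusted p values of 0.00195 and 9.92e-10 from the edgeR test. The 5 genes that rose, all short of 1.5-fold, were Spry1, Thbs1, Spred1, Pcsk7 and Furin. Their log2 fold changes were 0.57, 0.23, 0.18, 0.15 and 0.097.

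Vegfa is a classical target of the hypoxia-inducible factors, so their genes were examined as a list. Of 10 genes for these factors and the enzymes that control them, 5 rose, 3 fell and 2 did not pass, with a median log2 fold change of 0.11. Of all genes tested, 46.7% passed, 23.2% higher and 23.5% lower, with a median of -0.0043. Epas1, which encodes HIF-2α, was expressed at 63.8, 62.8 and 61.9 CPM with mimic control and at 27.8, 29.6 and 29.5 CPM with the mimic. The groups were far apart, with a log2 fold change of -1.12 (SE 0.044, edgeR adjusted p = 1.17e-10). Hif1a, which encodes HIF-1α and was named after its values were seen, rose from 334 ± 14.8 to 411 ± 8.09 CPM (SD, n = 3 each), by 0.30 on the log2 scale (edgeR adjusted p = 5.84e-06). The exons of Hif1a overlap those of annotated genes on both strands. Within this list, 1 seed match in the longest 3′-UTR was held by Epas1, which fell, and also by Egln1. Egln1 rose by 0.17 on the log2 scale (edgeR adjusted p = 0.000344). Hif1a and the other genes of the list held 0. Among tested genes with an annotated 3′-UTR, 13.9% held the match. In the other lists of this report, it was held by Slc2a1, Bnip3, Ndrg1 and Thbs1, which rose at an adjusted p under 0.05. Ccbe1, Thbs2 (2 matches), Cebpa, Abcc9 and Kcnj8 also held it and fell, while Spry4 and Plin1 held it and did not pass. Whether Epas1 is a direct target was not tested.

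Of 15 well-known target genes of these factors other than Vegfa, 9 rose, 3 fell and 3 did not pass, beside 23.2% of all genes tested that rose and 23.5% that fell. The median log2 fold change of the 15 was 0.21, and that of all genes tested was -0.0043. P4ha2, which encodes a subunit of collagen prolyl hydroxylase, rose by 0.47 and Kdm3a, which encodes a histone demethylase, rose by 0.39 on the log2 scale, with adjusted p values of 3.34e-08 and 6.63e-07 from the edgeR test. The 3 that fell were Ero1l, Adm and Ldha, with log2 fold changes of -0.14, -0.13 and -0.095. Car9, Ankrd37 and Bhlhe40 did not pass. The adjusted p of Vegfa stayed above 0.05, as given above.

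**Figure D5:**
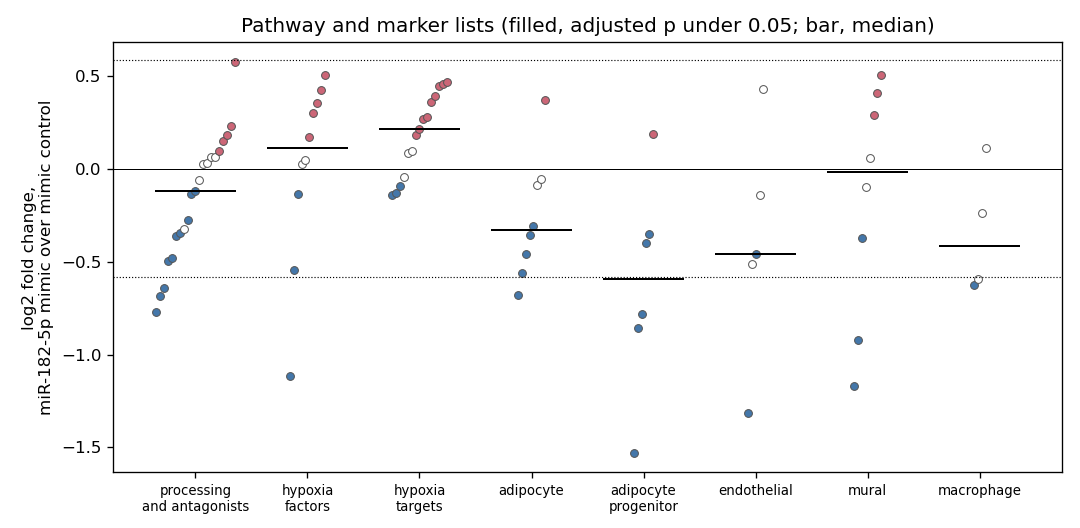
Log2 fold changes (mimic over control) of the tested genes of each pathway and marker list. Filled points passed an adjusted p of 0.05 (red higher, blue lower), open points did not, bars are medians and dotted lines mark the 1.5-fold change. Of the 15 hypoxia targets 9 are red, and of the 8 adipocyte markers 5 are blue. Among all genes tested, 23.2% were higher and 23.5% lower at this adjusted p.

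Among the 13109 other genes tested, those whose log2 CPM followed that of Pdgfc most closely over the 6 samples were Tgs1, Plekha1 and Raly, with Pearson correlations of 0.9996, 0.9979 and 0.9977. These values describe 6 libraries that fall into the 2 groups, and they carry mainly the difference between the groups. Of the remaining markers, 1 of 4 macrophage genes tested was lower (Lyz2, with a log2 fold change of -0.63 and an adjusted p of 0.0324 from the edgeR test, lost in DESeq2 and on leaving out any 1 of 4 samples), and the list summed to 12.4 to 15.7 CPM in every sample. Of 8 mural genes tested, 3 rose and 3 fell, and those past 1.5-fold were Abcc9, with a log2 fold change of -0.92, and Kcnj8, with -1.17. Among all genes tested, 23.2% were higher and 23.5% lower at an adjusted p under 0.05, and 7.45% also passed 1.5-fold. Kcnj8 had 5 to 16 reads per sample and lost its call in DESeq2 and in 3 of 6 fits with 1 sample left out.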

How the data were processed

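RNA of 6 samples was measured by poly(A)-selected, strand-marked RNA-Seq. The deposited values are unnormalized read counts by gene symbol, which the authors made with TopHat2 and HTSeq on mm9 according to the submitters' processing notes. The annotation and the strand setting are not given in the sources used here. The 5 tally lines that close each list, which held 47.4% to 47.9% of its total, were left out. Library totals are in the report, and genes with few reads have the largest standard errors.

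Counts were analysed in R 4.3.3 with edgeR 4.0.16 (filterByExpr with a minimum count of 10, TMM, glmQLFit and glmQLFTest, 2 groups, two-sided, Benjamini-Hochberg adjustment over 13117 genes). A gene passed at an adjusted p under 0.05, and 1.5-fold was a second cutoff. For the 2 ratios, 0.5 reads were added to each count. Intervals of low counts are exact binomial. The alternatives were DESeq2 1.42.0, limma-voom (limma 3.58.1), 2 other normalizations, 2 other filters, a replicate block, leaving out each sample, a 2-fold cutoff and glmTreat. The fit was checked on simulated data. The chi-square per degree of freedom between replicates was 2.13 to 7.18, so none were copies. The highest values were those of mimic replicate 1 against mimic replicates 2 and 3 (5.01 and 7.18). Mimic replicates 2 and 3 gave 2.13 between them.

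Exon lengths, coordinates and 3′-UTRs came from GENCODE M21 (GRCm38), another build than that of the counts, matched by symbol for 22209 of 22609 genes (1925 by an older symbol), and the miRNA from RefSeq. Vegfd and Adgre1 were looked up as Figf and Emr1. Named genes are the 10 growth factors, the members of each list past both cutoffs or else the 2 with the smallest p, and the 3 genes most correlated with the growth factor gene of smallest p. The other receptors, Hif1a, further genes of the lists and single markers were named after their values were seen. Marker sums without single genes were added after seeing the data. The growth factors and lists were chosen with earlier results of these data known. Figures used Python 3.11.15 and matplotlib 3.10.9.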

Additional observations from a re-analysis of the deposited data

How the results depend on the processing

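Under every alternative, glmTreat and the 2-fold cutoff included, 0 growth factor genes passed both cutoffs. In the 13 alternatives that keep the adjusted p as a call of its own, 2 or 3 passed it, 2 without Angpt2 in DESeq2 and on leaving out 4 of the 6 samples in turn. In these 13, receptor genes past the adjusted p numbered 5 or 6. Pdgfc and Vegfb passed in all 13, with log2 fold changes of 0.36 to 0.43 and -0.43 to -0.32. Among genes that did not pass, the direction turned for Vegfc without mimic replicate 3 (0.030, in a range of -0.38 to 0.030 over the samples left out) and for Angpt1 without control replicate 2 (0.00069) or mimic replicate 1 (0.029, in a range of -0.14 to 0.029). For the log2 ratio of Angpt2 to Angpt1, leaving out 1 sample moved the difference of group means, mimic minus control, between 0.23 and 0.37. For that of Vegfa to Vegfb the difference moved between 0.38 and 0.49. The same alternatives were run for 29 other genes, among them Hif1a, Thy1, Egfl7, Cdh5 and Vwf, which were added after seeing the data. Of these, 25 kept direction and side of the threshold in each alternative run, and Kdr, Nrp1, Kcnj8 and Lyz2 did not. Values that did not pass in the main fit also moved widely when 1 sample was left out. Among them were Pdgfd (-0.10 to -0.0071), Flt4 (0.17 to 0.88), Kdr (0.25 to 0.64), Cdh5 (-0.30 to -0.0083) and Vwf (-0.70 to -0.34). The ranges of Pdgfa and Ptprb are given above. Kcnj8 lost its call in DESeq2 (adjusted p = 0.105) and without control replicate 3, mimic replicate 2 or mimic replicate 3 (0.0508 to 0.0696). Lyz2 lost its call in DESeq2 (adjusted p = 0.154) and without control replicate 1, control replicate 3, mimic replicate 2 or mimic replicate 3 (0.0798 to 0.113). The causes were not tested.

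When replicate number entered the fit as a block, 3 of 8 growth factor genes and 6 of 10 receptor genes passed the adjusted p. Among all 13117 genes tested, 5716 passed it with the block and 6124 without. Genes past both cutoffs numbered 925 with the block and 977 without. The deviations of same-numbered samples correlated at -0.18, -0.042 and -0.075, so the numbers were not treated as pairs. Depth limits Pgf and Pdgfb, and glmTreat called 298 genes of all tested.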
